A study of Mus musculus with 12 samples.

Results

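Tumour-associated macrophages that enter the brain from blood are commonly followed with a small set of marker genes, and 9 of these were examined in mouse brain tumours: Lyz2, Cd68, Mrc1, Msr1, Cd14, Arg1, Cd163, Fcgr3 and Ms4a7. They were the rows of the deposited expression table whose gene symbol is one of these names, which gave 9 of 24054 rows. Tumours were grown in female C57BL/6 mice by injecting cells of the line ms7080 into the striatum (the protocol text calls them BC cells), and tissue was taken once the mice were symptomatic. The 12 libraries came from 4 groups of 3: old mice treated with NMN (nicotinamide mononucleotide, from which cells make NAD) at 300 mg per kg per day, old mice joined surgically to a partner so that both shared a circulation (parabiosis, with the partner's age not given in the sources used here), untreated old mice and untreated young mice. Old mice were 16 months old and came from an ageing colony, whereas young mice were 2 months old and came from commercial breeders, so that age and source cannot be told apart. All groups carried the same tumour line. The libraries were made from whole tumour tissue, and the labels mention no sorting of macrophages. Nothing in the labels states how many animals stood behind a library, so that p-values measure the spread between these libraries.

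Macrophages are phagocytes of the myeloid lineage. In the brain, resident microglia settle before birth and maintain themselves, whereas the macrophages that collect in tumours and wounds arise largely from circulating monocytes, which leave the blood under chemokine guidance and mature in the tissue. Mature cells degrade bacteria and debris with lysozyme and lysosomal enzymes, take up ligands through scavenger, mannose and haemoglobin receptors, sense lipopolysaccharide and antibody-coated particles, and, in an alternative activation state, break down arginine. Several of these genes are not exclusive to infiltrating cells: Cd68, Fcgr3 and Cd14 are also expressed by microglia, and Lyz2 by neutrophils.

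Expression was given as CPM, a read count relative to the library's total, scaled with TMM factors, and 18566096 to 26779406 whole reads per library were recovered from the values, so that 3 reads corresponded to 0.100 to 0.143 CPM. All 9 genes were above this limit in every library. The mice are labelled female, yet 3 libraries (young replicate 3 and untreated old replicates 1 and 2) had 1.88 to 5.33 CPM of Xist, the RNA of the inactive X chromosome, against 164 to 1127 CPM in the other 9, and the Y-linked gene Ddx3y was at 34.0 to 132 CPM in all 12. Within the tumour tissue, 12 of the 13 genes of a general myeloid list had a row and their sum lay between 215 and 784 CPM, while 12 genes of microglia summed to 203 to 361 CPM, 12 of monocytes to 59.6 to 170 CPM and 12 of neurons to 823 to 4384 CPM. No gene of these lists was at 0 in all libraries. Single genes made up much of some sums, so that a sum is not a level of its cell type. Map2 was at 635 and 661 CPM in young replicates 1 and 2, where the neuronal genes summed to 842 and 823 CPM. In young replicate 2, Sall1 was at 112 of the 266 CPM of microglial genes. In young replicate 3, Itga4 was at 37.0 of the 59.6 CPM of monocyte genes. Each library thus held transcripts from the lists of several cell types. For every gene described here, fewer cells of a type and less RNA per cell cannot be told apart.

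One of the markers has a near copy in the mouse genome. Lyz2, which encodes the lysozyme of macrophages, lies on chromosome 10 from 117277541 to 117282272 (build GRCm38.p6), and Lyz1, the lysozyme of intestinal Paneth cells, lies beside it from 117287795 to 117292868, both on the minus strand. Their coding sequences, of 447 bases each, were identical at 425 positions (95.1%), and the longest identical stretch was 118 bases. Of the 1167 windows of 150 bases (the read length) in the Lyz2 transcript, 0 occurred in a Lyz1 transcript. The first 150 coding bases of both genes, from GENCODE transcripts, are shown because they hold 14 of the differences by which reads of the genes can be separated; capitals mark the bases that differ.
Lyz2: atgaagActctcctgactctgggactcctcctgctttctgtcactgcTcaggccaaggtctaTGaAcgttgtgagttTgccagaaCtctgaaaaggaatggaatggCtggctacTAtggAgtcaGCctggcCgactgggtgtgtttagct
Lyz1: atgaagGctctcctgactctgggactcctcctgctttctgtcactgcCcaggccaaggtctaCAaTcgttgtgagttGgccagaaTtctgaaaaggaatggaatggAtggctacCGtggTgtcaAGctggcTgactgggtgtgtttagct

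Upstream sequence was compared because the closest pairs of markers across the tumours were Ms4a7 with Lyz2 and Ms4a7 with Cd68. RefSeq promoter sequences of build GRCm38.p6 were used for 6 of the 9 genes (Lyz2, Cd68, Mrc1, Cd163, Fcgr3 and Ms4a7). The 250 bases before each start were searched on both strands for 3 motifs. The PU box, GAGGAA, is bound by the myeloid factor PU.1; the ETS core, AGGAAG, overlaps it by 5 letters; AP-1 sites read TGANTCA. The regions of the 3 genes are given in the direction of transcription, with matches in capitals.
Lyz2, chr10:117282273-117282522, minus strand: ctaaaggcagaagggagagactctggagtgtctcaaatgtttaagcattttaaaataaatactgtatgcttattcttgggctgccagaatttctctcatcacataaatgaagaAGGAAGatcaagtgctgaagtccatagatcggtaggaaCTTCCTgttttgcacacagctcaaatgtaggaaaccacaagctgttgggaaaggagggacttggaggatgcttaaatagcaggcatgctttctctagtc
Cd68, chr11:69666171-69666420, minus strand: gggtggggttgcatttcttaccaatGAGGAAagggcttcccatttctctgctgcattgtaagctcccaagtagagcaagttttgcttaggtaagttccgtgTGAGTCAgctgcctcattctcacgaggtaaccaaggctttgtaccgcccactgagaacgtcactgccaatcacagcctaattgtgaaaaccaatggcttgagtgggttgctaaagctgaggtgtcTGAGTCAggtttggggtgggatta
Ms4a7, chr19:11336147-11336396, minus strand: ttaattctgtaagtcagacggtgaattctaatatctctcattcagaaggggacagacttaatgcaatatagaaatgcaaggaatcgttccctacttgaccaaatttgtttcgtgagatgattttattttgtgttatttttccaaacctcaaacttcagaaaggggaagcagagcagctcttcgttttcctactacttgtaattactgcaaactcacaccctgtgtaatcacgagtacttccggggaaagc

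The 3 sequences shared no searched motif. Lyz2 held 2 ETS cores, beginning 137 and 99 bases before the start, and 0 PU boxes. Cd68 held 1 PU box at 225 bases and 2 AP-1 matches at 149 and 24 bases, and Ms4a7 held none of the 3 motifs. Among the 6 genes the PU box occurred in 3 (Cd68, Mrc1 and Fcgr3), against 23.1% of 27025 promoters; the ETS core occurred in 3 (Lyz2, Mrc1 and Fcgr3), against 29.2%; and AP-1 occurred in 1, against 6.85%. Promoters of Msr1, Arg1 and Cd14 were not used, so the counts cover only these 6 genes. The Fcgr3 window, from 171059404 to 171059653 on the minus strand, lies inside the gene's listed span. That span runs from 171051169 to 171065915, so the Fcgr3 matches belong to an internal start. A match is a description of the letters in the window searched. The upstream regions of Lyz2 and Lyz1 were alike near the start, with 92 of the last 100 bases and all of the last 50 identical, and both held the ETS core at 99 bases.

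Lyz2 was at 21.3, 103 and 88.8 CPM in NMN replicates 1 to 3, at 156, 117 and 86.4 CPM in parabiosis replicates, at 55.5, 68.8 and 123 CPM in untreated old replicates and at 110, 154 and 33.9 CPM in young replicates. NMN replicate 1 and young replicate 3 were the lowest of the 12, and every pair of groups overlapped. The means were 70.9 ± 43.5 CPM with NMN, 120 ± 34.9 CPM with parabiosis, 82.4 ± 35.6 CPM in untreated old and 99.1 ± 60.6 CPM in young tumours (3 libraries each, ± SD). The highest library exceeded the lowest 7.32-fold, and on the scale used for testing, log2(CPM + 1), the spread of Lyz2 over the 12 libraries exceeded that of 93.8% of the 15232 genes kept. A gene was kept when it reached 1 CPM in at least 3 libraries.

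Lyz1 followed Lyz2. It amounted to 4.59 to 6.95% of the Lyz2 CPM in every library, and the log2 values of both genes correlated with a Pearson r of 0.98 and a Spearman rho of 0.958 (permutation p = 1e-05 for each, the smallest that 100000 resamples can give, adjusted p = 3e-05 over 3 such relations). Without the 2 libraries farthest from the median of Lyz2, r was 0.921. The counting program divided reads between similar genes, and how much of the Lyz1 value came from shared reads was not tested.

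Cd68, a lysosomal membrane glycoprotein of phagocytes on chromosome 11 from 69664213 to 69666170, was at 17.9, 25.0 and 21.4 CPM in NMN tumours, 40.8, 29.9 and 30.5 CPM in parabiosis tumours, 28.3, 39.7 and 24.6 CPM in untreated old tumours and 27.7, 25.1 and 17.6 CPM in young tumours. The 3 parabiosis libraries lay above all NMN and all young libraries, whereas the untreated old libraries overlapped each of the other groups. The means were 21.4 ± 3.59 CPM with NMN, 33.7 ± 6.15 CPM with parabiosis, 30.9 ± 7.90 CPM in untreated old and 23.5 ± 5.23 CPM in young tumours. Cd68 had the narrowest range of the 9 markers, 2.32-fold from lowest to highest.

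The receptors that take up ligands did not share one order of groups. Msr1, the class A scavenger receptor for modified lipoproteins on chromosome 8, was at 1.2, 4.98 and 13.7 CPM with NMN, 9.25, 11.7 and 7.08 CPM with parabiosis, 7.37, 7.58 and 17.5 CPM in untreated old and 9.49, 9.43 and 13.3 CPM in young tumours. NMN replicates alone spanned almost the whole range of the 12 libraries, which was 14.6-fold, the widest of the 9 genes.

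Mrc1, the macrophage mannose receptor on chromosome 2, was at 3.67, 5.68 and 7.47 CPM with NMN, 3.16, 3.77 and 3.80 CPM with parabiosis, 3.85, 2.13 and 5.27 CPM in untreated old and 3.31, 3.24 and 3.75 CPM in young tumours. The NMN mean of 5.61 ± 1.90 CPM was the highest, against 3.75 ± 1.57 CPM in untreated old tumours, with overlap. Cd163, the scavenger receptor for haptoglobin-haemoglobin complexes on chromosome 6, was at 4.33, 3.35 and 6.38 CPM with NMN, 1.70, 4.91 and 3.09 CPM with parabiosis, 7.65, 4.67 and 2.97 CPM in untreated old and 3.22, 3.48 and 5.50 CPM in young tumours. Its lowest value was a parabiosis library and its highest an untreated old library, and all groups overlapped.

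Among the sensing receptors, Cd14, a co-receptor for lipopolysaccharide, was at 2.56, 2.37 and 8.59 CPM with NMN, 2.70, 3.47 and 4.52 CPM with parabiosis, 2.91, 2.13 and 5.53 CPM in untreated old and 2.77, 3.67 and 3.62 CPM in young tumours. NMN replicate 3 and untreated old replicate 3 stood above the remaining 10 libraries. Fcgr3, a low-affinity receptor for immunoglobulin G on chromosome 1, showed the opposite picture in those libraries, at 20.4, 19.3 and 10.4 CPM with NMN, 24.4, 18.3 and 16.4 CPM with parabiosis, 23.1, 24.8 and 8.92 CPM in untreated old and 16.8, 16.5 and 9.25 CPM in young tumours. The third replicate was the lowest of its group for Fcgr3 in all 4 groups and the highest for Mrc1 in all 4.

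Fcgr3 also has relatives beside it on chromosome 1. Its coding sequence was 87.5% identical to that of Fcgr2b, the inhibitory receptor, with a longest identical stretch of 129 bases, and 68.3% identical to that of Fcgr4, an activating receptor, with a longest stretch of 14 bases; 0 of 1627 windows of 150 bases were shared with either. The relations of Fcgr3 with Fcgr2b (r = 0.589, rho = 0.545, permutation p = 0.0442, adjusted p = 0.0442) and with Fcgr4 (r = 0.596, rho = 0.49, permutation p = 0.0428, adjusted p = 0.0442) were looser than that of the lysozymes, and without the 2 libraries farthest from the median of Fcgr3 they were r = 0.291 and r = 0.324, so both rest on those libraries.

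Ms4a7, a tetraspan membrane protein that marks macrophages of monocyte and border origin in mouse brain, lies on chromosome 19 from 11321039 to 11336146. It was at 1.2, 6.96 and 3.04 CPM with NMN, 12.4, 8.34 and 6.84 CPM with parabiosis, 5.58, 8.44 and 4.97 CPM in untreated old and 11.4, 11.0 and 0.980 CPM in young tumours. The same libraries that were lowest in Lyz2, young replicate 3 and NMN replicate 1, were lowest in Ms4a7, and the range was 12.7-fold. The means were 3.74 ± 2.94 CPM with NMN, 9.20 ± 2.88 CPM with parabiosis, 6.33 ± 1.85 CPM in untreated old and 7.81 ± 5.92 CPM in young tumours.

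Arg1, which splits arginine to ornithine and urea and marks alternatively activated mouse macrophages, was barely detected. It was at 0.248, 0.583 and 0.375 CPM with NMN, 0.501, 0.768 and 0.285 CPM with parabiosis, 0.985, 0.598 and 1.32 CPM in untreated old and 0.817, 0.381 and 0.853 CPM in young tumours, which were 6 to 35 reads. The NMN libraries lay below the untreated old libraries, although the nearest of them, NMN replicate 2 and untreated old replicate 2, had 15 and 16 reads; 6.92% of the genes kept were lower with NMN without overlap. Arg1 averaged 0.40 CPM with NMN, 0.52 CPM with parabiosis, 0.97 CPM in untreated old and 0.68 CPM in young tumours. It did not pass the filter on low values, and log2(CPM + 1) understates differences at such values. With the filter lowered to 0.1 CPM (18204 genes) its log2 difference for NMN against old was -0.48 ± 0.18 (SE, limma adjusted p = 0.499 over all genes tested), and that for parabiosis against old was -0.37 (adjusted p = 0.937).

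**Figure D1:**
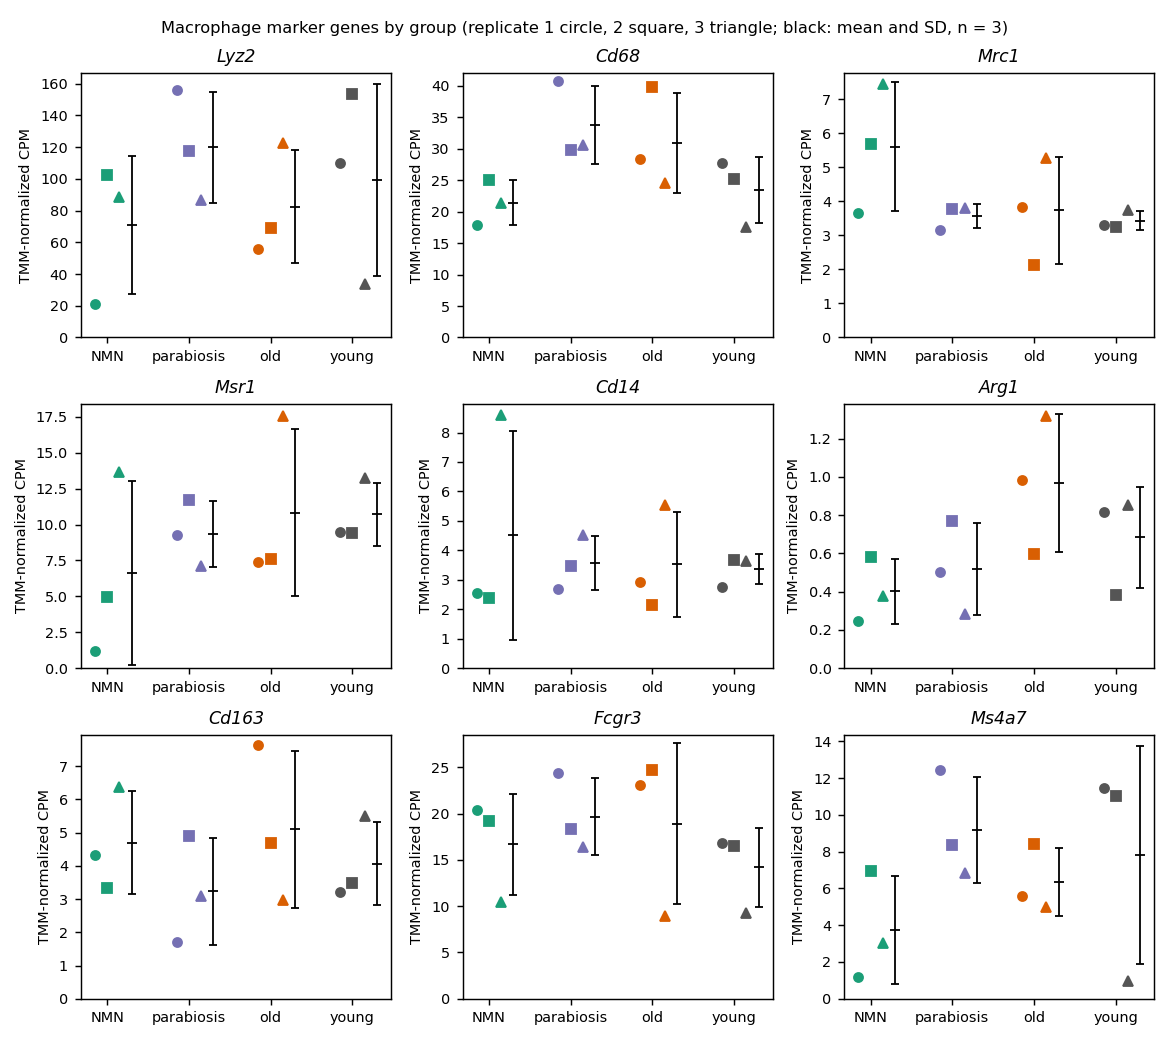
TMM-normalized CPM of the 9 marker genes (vertical axes, each gene on its own scale from 0) in NMN, parabiosis, untreated old and young tumours, with 1 point per library and the mean and SD (n = 3) in black. Groups overlap for nearly every gene, and in Lyz2 and Ms4a7 NMN replicate 1 and young replicate 3 lie at the bottom, at 21.3 and 33.9 CPM of Lyz2.

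The treatments were each compared with untreated old tumours, to ask whether NMN or parabiosis changed the markers in old mice. Both comparisons use the same 3 untreated old libraries. For NMN against old, 0 of the 8 genes kept were called at an adjusted p under 0.05 (limma, Benjamini-Hochberg over 15232 genes), where 0% of all genes were called, and 1 of 8, Cd68, had an unadjusted p under 0.05, where 10.3% of all genes did. Among the 8 genes 0 were without overlap, against 19.5% of all genes. The means of 6 were lower and of 2 higher with NMN, with a median log2 difference of -0.26, and 0.01 over all genes.

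The sizes were modest for most markers. Cd68 was 0.49 ± 0.22 log2 units lower with NMN than in untreated old tumours (SE, 95% confidence interval -0.98 to 0, the upper end rounding to 0, adjusted p = 0.480), and Mrc1 was 0.49 ± 0.27 higher (-0.10 to 1.08, adjusted p = 0.497). Msr1 differed by -0.93 ± 0.57 (-2.18 to 0.32, adjusted p = 0.515) and Ms4a7 by -0.80 ± 0.67 (-2.27 to 0.67, adjusted p = 0.6), intervals whose lower ends lie below -2. Without the 3 libraries low in Xist, which leaves 1 untreated old library assumed to vary like the other groups, Cd68 differed by -0.20, Mrc1 by 0.03 and Msr1 by -1.68. Lyz2 differed by -0.41 ± 0.65 (adjusted p = 0.781), and without NMN replicate 1 this value was 0.29 and that of Msr1 was -0.23. Cd14 (0.18), Fcgr3 (-0.10) and Cd163 (-0.06) had the smallest differences, and the values of Cd14 and Fcgr3 changed sign without NMN replicate 3, at -0.31 and 0.19.

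For parabiosis against old, 0 of 8 were called, against 0% of all genes, 0 of 8 had an unadjusted p under 0.05, against 5.61% of all genes, and 0 were without overlap, against 13.7%. The means of 6 were higher and of 2 lower, with a median log2 difference of 0.10, and 0.02 over all genes. The widest differences were those of Lyz2 at 0.58 ± 0.65 (-0.85 to 2.01, adjusted p = 0.916), Cd163 at -0.53 ± 0.35 (-1.31 to 0.25, adjusted p = 0.904) and Ms4a7 at 0.47 ± 0.67 (-1.0 to 1.94, adjusted p = 0.929). Cd68 differed by 0.14 (-0.35 to 0.63), Mrc1 by 0.001 (-0.59 to 0.59) and Cd14 by 0.06 (-0.81 to 0.93).

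The age comparison likewise gave 0 of 8 called, against 0% of all genes, 0 of 8 with an unadjusted p under 0.05, against 6.96% of all genes, and 0 without overlap, against 13.6%. Cd68 was 0.38 ± 0.22 log2 units higher in untreated old than in young tumours (-0.11 to 0.87, adjusted p = 0.786) and Fcgr3 0.31 ± 0.39 higher (-0.54 to 1.17, adjusted p = 0.920). Lyz2 differed by -0.10 ± 0.65 and Ms4a7 by 0.11 ± 0.67, and without young replicate 3 these were -0.73 and -0.77. The libraries low in Xist are 1 young and 2 untreated old ones. Without them, with the remaining old library assumed to vary like the other groups, the age difference was -0.10 for Cd68, -0.83 for Fcgr3, -1.03 for Ms4a7 and 0.83 for Msr1. The sign of the age difference turned for these 4 genes.

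**Figure D2:**
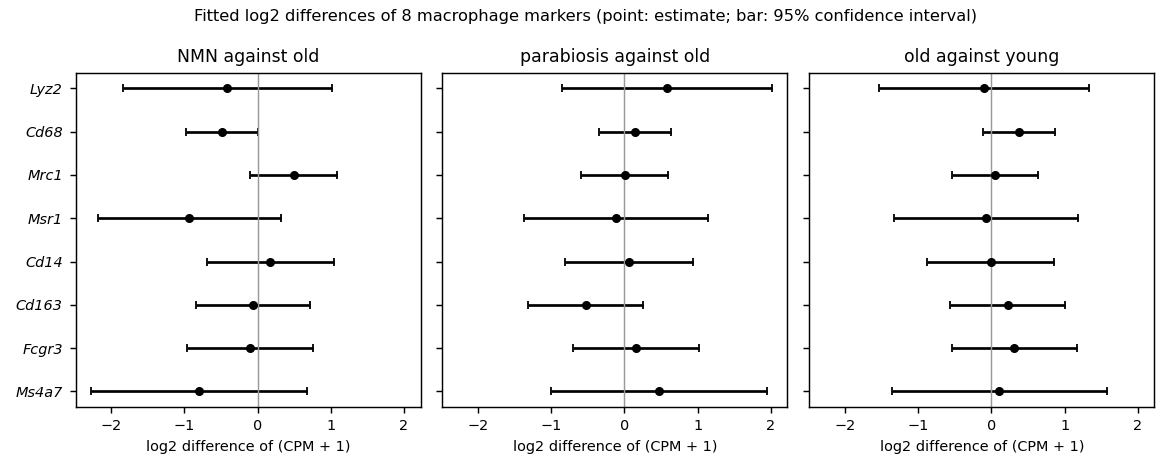
Fitted differences on the log2(CPM + 1) scale (horizontal axes) for the 8 markers that passed the filter, for NMN against untreated old, parabiosis against untreated old, and untreated old against young; points are estimates and bars are 95% confidence intervals from limma. The interval of Cd68 for NMN ends at 0 when rounded, the other 23 cross 0, and those of Lyz2, Msr1 and Ms4a7 are the widest.

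The remaining pairs of groups gave 0 of 8 markers called as well, while the table as a whole differed in how many genes were called. For NMN against young, 8.15% of all genes (1242) were called and 0 of 8 markers; 0 of 8 had an unadjusted p under 0.05, against 25.7% of all genes, and 0 were without overlap, against 29.2%. The largest difference was that of Msr1, at -1.0 ± 0.57 (adjusted p = 0.293), followed by Ms4a7 at -0.69 ± 0.67 (adjusted p = 0.549) and Mrc1 at 0.54 ± 0.27 (adjusted p = 0.236). Leaving out young replicate 3, the library lowest in Ms4a7, gave Ms4a7 a difference of -1.56 ± 0.46 with a limma adjusted p of 0.0486. In that fit 2136 of 15191 genes were called. For parabiosis against young, 0% of all genes were called and Cd68 was higher without overlap, by 0.52 ± 0.22 (0.02 to 1.01, adjusted p = 0.257), 1 of 8 markers where 13.7% of all genes were higher without overlap and 23.9% were without overlap in either direction; it was also the 1 marker with an unadjusted p under 0.05, against 18.1% of all genes. With the replicate number as a block these were 2 markers, Cd68 and Fcgr3 (limma adjusted p = 0.222 and 0.249), and 0 were called. The share of all genes with such an unadjusted p was not counted with the block, so the 2 cannot be set against it. For NMN against parabiosis, 0% of all genes were called and Cd68 was lower without overlap, by 0.63 ± 0.22 log2 units (95% confidence interval of the difference -1.12 to -0.14, adjusted p = 0.401), 1 of 8 where 7.83% of all genes were lower without overlap and 14.8% were without overlap in either direction. It was again the 1 marker with an unadjusted p under 0.05, against 9.65% of all genes. Ms4a7 differed between NMN and parabiosis by -1.27 ± 0.67 (adjusted p = 0.565) and Lyz2 by -0.99 ± 0.65 (adjusted p = 0.631). An F test over the 4 groups called 0 of 8 markers and 0% of all genes. By that test 1 of 8, again Cd68 (adjusted p = 0.273), had an unadjusted p under 0.05, against 18.3% of all genes.

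No marker tested was called between groups in the main fit. The markers varied between tumours, and they did not vary as one set. Over the 36 pairs of the 9 genes, Pearson correlations of log2(CPM + 1) across the 12 libraries ran from -0.764 to 0.847 with a median of 0.07, and 23 were positive and 13 negative. Of the 36, 3 had an adjusted permutation p under 0.05 by Pearson and 1 by Spearman (two-sided, Benjamini-Hochberg over the 36 pairs). Lyz2 followed the mean of the other markers most closely, at r = 0.817, while Cd163 ran against it at -0.384, Fcgr3 at -0.159 and Mrc1 at -0.056, all given as descriptions. The set was therefore described gene by gene, not as a single macrophage level.

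Ms4a7 varied with Lyz2 and with Cd68, while Lyz2 and Cd68 were less close to each other (r = 0.588, rho = 0.385, adjusted permutation p = 0.197, and r = -0.033 without the 2 libraries farthest on Lyz2). The correlation of Cd68 with Ms4a7 was r = 0.826 (permutation p = 0.00091, adjusted p = 0.0245) and rho = 0.769 (adjusted p = 0.0846), and r was 0.877 without the 2 libraries farthest from the median of Cd68. The correlation of Lyz2 with Ms4a7 was r = 0.847 (permutation p = 0.00136, adjusted p = 0.0245) and rho = 0.692 (permutation p = 0.0154, adjusted p = 0.185), but r was 0.49 without the 2 farthest libraries, so that it rests on them. Young replicate 3 and NMN replicate 1 stood apart in both genes. Without these 2 libraries, a choice made after seeing the data, r was 0.607 for Cd68 and 0.49 for Lyz2 with Ms4a7, and 0 pairs passed.

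Cd14 ran against Fcgr3. Their correlation was r = -0.764 (permutation p = 0.004, adjusted p = 0.048) and rho = -0.846 (permutation p = 0.00088, adjusted p = 0.0317), with r = -0.603 without the 2 libraries farthest from the median of Cd14 and -0.863 without young replicate 3 and NMN replicate 1. The samples are small in number, and leaving out NMN replicate 1 alone left 0 pairs past the threshold.

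When each gene was expressed as its deviation from its group mean, a second set came forward. Mrc1, Msr1 and Cd14 deviated together (r = 0.804 for Mrc1 with Msr1, 0.793 for Mrc1 with Cd14 and 0.756 for Msr1 with Cd14), and Fcgr3 deviated against all of them, at -0.794, -0.718 and -0.838. Both Lyz2 with Ms4a7, at 0.817, and Cd68 with Ms4a7, at 0.844, stayed close in this form, whereas Lyz2 with Cd68 was at 0.546. The deviations share group means and are given as descriptions. Over the values themselves, r was 0.208 for Mrc1 with Msr1, 0.708 for Mrc1 with Cd14 and 0.55 for Msr1 with Cd14. None of these passed (adjusted permutation p = 0.792, 0.11 and 0.237). Without the 2 libraries farthest on the first gene they were 0.043, 0.198 and 0.59. The high end of the second set was NMN replicate 3 and untreated old replicate 3, where Cd14 was 8.59 and 5.53 CPM, Msr1 13.7 and 17.5 CPM and Mrc1 7.47 and 5.27 CPM.

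**Figure D3:**
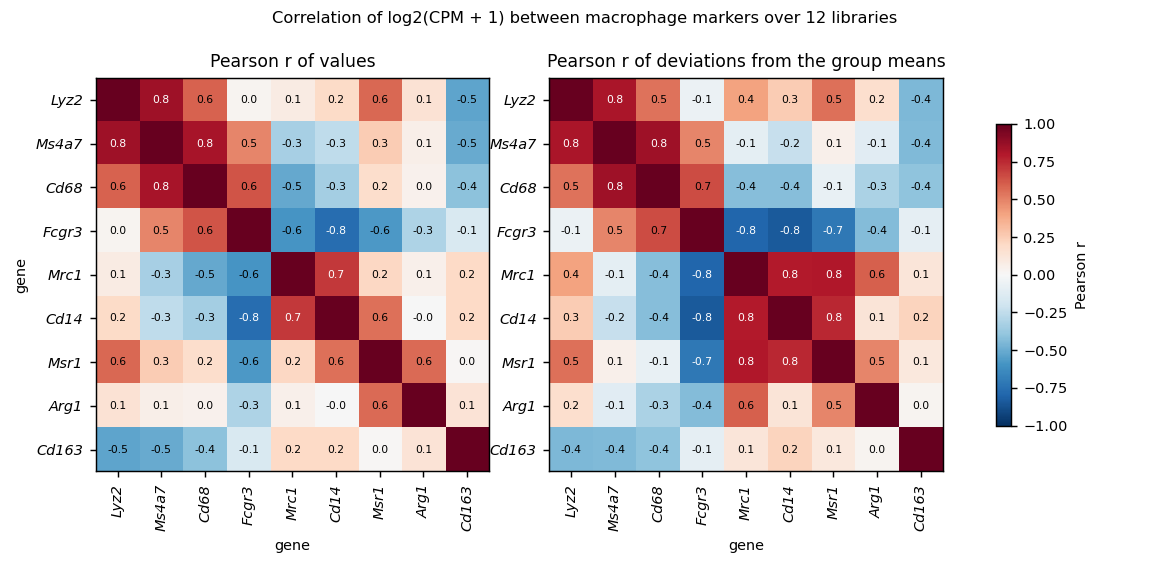
Pearson correlations between the 9 markers over 12 libraries, from log2(CPM + 1) values on the left and from deviations from the group means on the right; red is positive, blue negative, and both axes list the genes. Ms4a7 is positive with Lyz2 and Cd68, at 0.847 and 0.826 on the left, and Fcgr3 is negative with Mrc1, Cd14 and Msr1, at -0.794, -0.838 and -0.718 on the right.

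**Figure D4:**
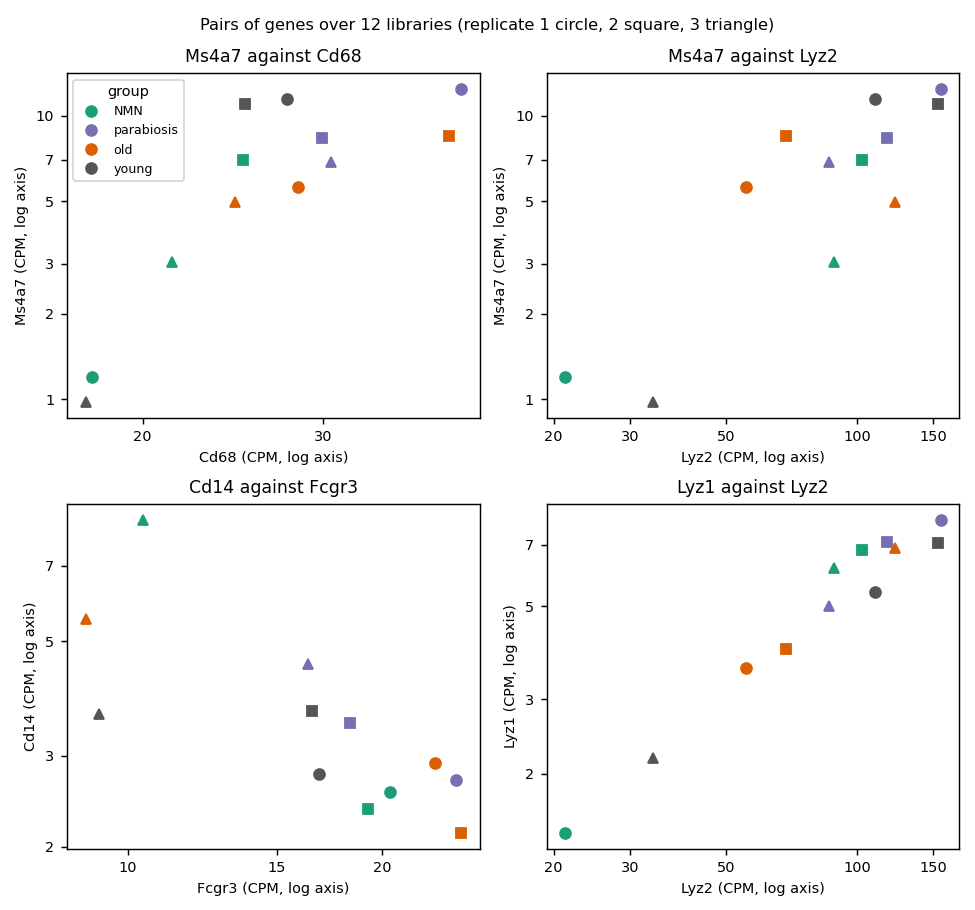
CPM of 4 pairs of genes on log axes, with 1 point per library coloured by group. NMN replicate 1 and young replicate 3 lie at the lower left for Lyz2, Cd68 and Ms4a7, Cd14 is low where Fcgr3 is high (r = -0.764), and Lyz1 follows Lyz2 along a line (r = 0.98).

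Scores of gene lists for neighbouring cell types correlated with some of the markers, and the part of these cell types in the patterns was not tested. The relations of the 9 markers with 4 list scores (the mean log2 deviation over a list's genes, for monocytes, all myeloid cells, microglia and neurons) were computed after seeing the data, 36 in all, of which 6 had an adjusted permutation p under 0.05 by Pearson. By Spearman 2 had one, Cd68 and Fcgr3 with the general myeloid score, and the other 4 described here did not pass. Cd68 and Ms4a7 followed the monocyte score, at r = 0.818 (rho = 0.762, permutation p = 0.00093, adjusted p = 0.00837, by Spearman 0.0597) and r = 0.853 (rho = 0.748, permutation p = 0.00059, adjusted p = 0.00708, by Spearman 0.0597). Without the 2 libraries farthest on the marker, these were 0.87 and 0.638. Cd68, Fcgr3 and Ms4a7 followed the general myeloid score, at r = 0.886, 0.843 and 0.740 (rho = 0.895, 0.811 and 0.692, adjusted p = 0.00708, 0.00708 and 0.0378, and by Spearman 0.00648, 0.041 and 0.0905).

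Fcgr3 was the marker that followed microglia, at r = 0.734 (rho = 0.734, permutation p = 0.00825, adjusted p = 0.0495, by Spearman 0.0649), which was 0.536 without the 2 farthest libraries, and 0.90 in deviations from the group means. Msr1 and Cd14 deviated against the microglial score, at -0.705 and -0.750. Lyz2 and Ms4a7 deviated against the neuronal score, at -0.901 and -0.855, although their correlations with it over all libraries were -0.482 (adjusted p = 0.328) and -0.475 (adjusted p = 0.328). Summed CPM of the 12 neuronal genes was 2145 to 4384 with NMN, 1809 to 3381 with parabiosis, 1389 to 1864 in untreated old and 823 to 1665 in young tumours. Map2 alone gave 635 to 1015 CPM of these sums. With the neuronal score as a covariate, parabiosis against young gave log2 differences of 2.84 ± 0.46 for Lyz2 (limma adjusted p = 0.0212) and 2.87 ± 0.58 for Ms4a7 (adjusted p = 0.0281), with 826 genes called. Without the covariate these differences were 0.48 ± 0.65 (adjusted p = 0.754) and 0.58 ± 0.67 (adjusted p = 0.703). The neuronal scores of the groups did not overlap, at 0.24 to 1.33 with parabiosis and -2.07 to -0.20 in young tumours, so the values with the covariate are an extrapolation to a score that the groups did not share.

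The 2 libraries with the highest Cd14 also had the highest values of 3 neutrophil transcripts. The granule and alarmin genes S100a8, S100a9 and Ngp, named after their values were seen, were at 3.84, 6.59 and 3.25 CPM in NMN replicate 3, at 0.753, 2.00 and 0.753 CPM in untreated old replicate 3 and at 0.639, 1.36 and 0.512 CPM in young replicate 3. In the other 9 libraries none of the 3 exceeded 0.272 CPM. The match with Cd14 was partial, since parabiosis replicate 3, next in Cd14 at 4.52 CPM, had 0 CPM of S100a8 and 0.19 CPM of S100a9, and young replicate 3 had 3.62 CPM of Cd14, below young replicate 2. Csf3r, the receptor for granulocyte colony-stimulating factor on the same list, was highest of its group in NMN replicate 3 at 11.3 CPM but lowest of its group in untreated old replicate 3 and young replicate 3, at 7.08 and 5.80 CPM. F13a1, a transglutaminase subunit of monocytes and border macrophages, was also highest in NMN replicate 3 and untreated old replicate 3, at 5.76 and 3.61 CPM. Of the 12 neutrophil genes listed, 11 had a row. Their summed CPM was 59.5 to 90.9 with NMN, 58.0 to 60.7 with parabiosis, 68.2 to 79.4 in untreated old and 62.6 to 67.3 in young tumours. Most of each sum was Cxcr2, at 48.5 to 67.2 CPM over the libraries, so the sum is not a level of neutrophils. In NMN replicate 3 Cxcr2 was at 60.3 CPM, against 60.9 CPM in NMN replicate 2. The part of the neutrophil genes in the Cd14 values was not tested.

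Genes that act with the markers were tested in the same fits. In the comparisons named next 0% of all genes were called, so 0 calls in a list is no result about that list. For NMN against old, parabiosis against old, and old against young, 0 genes were called in each of the lists for monocytes (9 genes kept), general myeloid cells (12), border macrophages (4), alternative activation (8), inflammatory activation (9), other scavenger receptors (9), the lipopolysaccharide pathway (8), Fc receptors (6), lysosomal genes (10), arginine metabolism (8), macrophage growth factors (6) and microglia (11). The medians of the monocyte genes, which mark the presumed blood precursors, were -0.79 for NMN against old (2 higher, 7 lower) and 0.24 for parabiosis against old (9 higher), against medians of 0.01 and 0.02 over all genes. The monocyte score was -0.90 in NMN replicate 1, against -0.32 and -0.20 in NMN replicates 2 and 3. For NMN against old, medians of other lists moved as well, with 0 called in each. They were -0.59 for T and NK cell genes (7 of 7 lower), -0.45 for cell cycle genes (10 of 10 lower) and 1.16 for neuronal genes (12 of 12 higher). For parabiosis against old, medians were 0.86 for neuronal genes (12 of 12 higher) and 0.205 for general myeloid genes (11 of 12 higher). Those of T and NK cell genes (5 of 7 higher) and cell cycle genes (8 of 10 lower) were 0.05 and -0.05. The part of these lists in the monocyte values was not tested. Ccr2, the chemokine receptor through which monocytes leave the marrow, averaged 1.87 ± 1.07 CPM with NMN, 8.46 ± 5.22 CPM with parabiosis, 4.51 ± 0.90 CPM in untreated old and 9.49 ± 6.38 CPM in young tumours. Its log2 difference for NMN against old was -1.0 ± 0.64 (adjusted p = 0.521), with the NMN libraries below the untreated old ones, as for 6.92% of all genes.

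Calls in these lists appeared for NMN against young, where 8.15% of all genes were called. Among microglial genes 4 of 11 were called higher, namely Gpr34, Cx3cr1, P2ry12 and Siglech; P2ry12, a purinergic receptor of resting microglia, averaged 12.5 ± 1.91 CPM with NMN and 4.28 ± 1.87 CPM in young tumours, a log2 difference of 1.40 ± 0.30 (adjusted p = 0.0289). Genes of other brain cells were called higher in the same comparison, 10 of 12 neuronal genes (median log2 difference 2.50), 5 of 8 oligodendrocyte genes (1.82) and 2 of 8 astrocyte genes (0.62), and their part in the microglial values was not tested. Among monocyte genes 1 of 9 was called higher, the basigin family member Emb, at 11.1 ± 4.51 CPM with NMN and 2.26 ± 1.18 CPM in young tumours (1.86 ± 0.34, adjusted p = 0.0268), against the direction of the list's median of -0.70. Mertk, a receptor for uptake of apoptotic cells, was called higher (0.94 ± 0.25, adjusted p = 0.0451). Cd63, a lysosomal tetraspanin (-0.73 ± 0.16, adjusted p = 0.0283), and Ticam1, a toll-like receptor adaptor (-0.40 ± 0.11, adjusted p = 0.0441), were called lower. None of the lists for general myeloid cells, Fc receptors, alternative activation or arginine metabolism held a called gene, 0 in each.

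Some uncalled genes of the markers' pathways had groups without overlap, as did 19.5% of all genes for NMN against old (6.92% lower with NMN), 13.7% for parabiosis against old and 13.6% for old against young. Spp1, the secreted matrix protein osteopontin, averaged 43.7 ± 27.0 CPM with NMN, 42.7 ± 21.8 CPM with parabiosis, 170 ± 112 CPM in untreated old and 55.7 ± 20.1 CPM in young tumours, and all untreated old libraries lay above those of each other group. The margin was narrow, at 80.1 CPM in untreated old replicate 2 against 78.9 CPM in young replicate 3. Untreated old replicate 1 was at 295 CPM. The log2 differences of Spp1 were -1.95 ± 0.61 for NMN against old (adjusted p = 0.480), -1.90 ± 0.61 for parabiosis against old (adjusted p = 0.837) and 1.44 ± 0.61 for old against young (adjusted p = 0.703). In the alternative activation list, 1 of 8 genes was higher with parabiosis than in untreated old tumours without overlap, and 1, Spp1, was lower. The share of all genes without overlap in either direction was 13.7%, and that of higher genes alone is not given here. The higher gene was Gpnmb, at 203, 144 and 185 CPM against 69.7, 125 and 58.6 CPM. Trem2 averaged 7.07 CPM in young and 12.1 CPM in untreated old tumours, also without overlap. Cd36, a scavenger receptor for oxidised lipoproteins and fatty acids, averaged 1.81 ± 0.14 CPM with NMN, 4.35 ± 0.83 CPM with parabiosis, 3.58 ± 0.40 CPM in untreated old and 1.59 ± 0.85 CPM in young tumours, and was lower with NMN than in untreated old tumours without overlap (-0.70 ± 0.24, adjusted p = 0.480). Nos2, the inducible nitric oxide synthase that competes with Arg1 for arginine, averaged 0.81 ± 0.52 CPM with NMN, 2.62 ± 1.77 CPM with parabiosis, 1.55 ± 0.65 CPM in untreated old and 1.58 ± 0.90 CPM in young tumours, with overlap.

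The 5 genes whose pattern lay closest to the mean of the 8 markers kept were Top1mt, Slc38a5, Zmym1, Cep41 and Pdia4, with Pearson correlations over the 12 libraries of 0.955, 0.949, 0.948, 0.945 and 0.944 and Spearman correlations of 0.706, 0.699, 0.783, 0.699 and 0.755. Each was lowest in NMN replicate 1 and next lowest in young replicate 3; Pdia4, a protein disulphide isomerase of the endoplasmic reticulum, was at 70.0 and 102 CPM there, against 141 to 270 CPM in the other 10 libraries. The markers' mean deviation was likewise lowest there, at -0.77 and -0.42, against -0.01 to 0.24 in the other 10.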

How the data were processed

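The deposited table holds TMM-scaled CPM for 24054 gene symbols, 27 of them turned into dates and not named. Builds mm10 and GRCm38 and the programs RSEM 1.2.15, Bowtie2 2.1.0, edgeR and FastQC are listed in the submitters' processing notes. Per the labels' protocols, total RNA was depleted of ribosomal RNA and stranded libraries were sequenced in pairs of 150 bp reads. All CPM values were whole multiples of 1 read (100% at a tolerance of 0.01), which gave counts for edgeR 4.0.16 and DESeq2 1.42.0 as alternatives. log2(CPM + 1) of the 15232 genes with at least 1 CPM in at least 3 libraries was fitted with 1 mean per group and a mean-variance trend (limma 3.58.1 under R 4.3.3); p-values are two-sided with Benjamini-Hochberg adjustment, called under 0.05. Low genes' changes are understated on this scale. Genes outside the markers were named when among the 3 of their list with the smallest F-test p or when called. Map2, Sall1 and Itga4 were named for their share of a sum. The members and lists were chosen with earlier results of these data known. The fitting code was tested on simulated data. Correlations used 100000 permutations. Replicate numbers are from the labels, which do not say what they share. Deviations from the group means of same-numbered libraries correlated over 0.1 in 10 of 18 pairs (-0.503 to 0.597). These held all 3 pairs for NMN with old (0.213 to 0.371) and for parabiosis with young (0.388 to 0.561). Differently numbered libraries were not set beside them, so this check cannot decide whether the numbers pair samples.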

Additional observations from a re-analysis of the deposited data

How the results depend on the processing

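In any comparison 0 markers were called under both pseudocounts, quantile normalization, both alternative filters, edgeR and DESeq2 on recovered reads, and the fits of 2 groups alone. All 9 markers were tested under the alternative filters, and 8 of the 9 in the other fits. The exceptions were 2 markers for parabiosis against young with the neuronal score as covariate, and 0 to 1 for NMN against young when single libraries were left out. With the replicate number as a block, 1376 genes were called for NMN against young in place of 1242. It called 0 markers in every comparison, so the block changed no call of a marker. It narrowed the SE of Fcgr3 to 0.199, against 0.387 without the block. Markers with an unadjusted limma p under 0.05 were then 1 for NMN against young (Mrc1, adjusted p = 0.191) in place of 0, and 2 for parabiosis against young (Cd68 and Fcgr3) in place of 1. The share of all genes with such a p was not counted for this fit. The cause of each change below was not tested.

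Genes called in the whole table changed more. DESeq2 called 72 for old against young, 46 for NMN against old, 44 for parabiosis against old, 2367 for NMN against young, 977 for parabiosis against young, 232 for NMN against parabiosis and 1614 in the test over 4 groups. With the neuronal score as covariate the counts were 56 for old against young, 10 for NMN against young and 826 for parabiosis against young. Without the libraries low in Xist they were 2 for parabiosis against old, 327 for parabiosis against young, 2 for NMN against parabiosis and 11 in the F test. With no filter they were 742 for NMN against young and 3 in the F test. For NMN against young, edgeR called 93 and the fit of those groups alone 29. Leaving out 1 library at a time gave 0 to 2136 for NMN against young, 0 to 702 for parabiosis against young, 0 to 691 in the F test, 0 to 2 for old against young, and 0 to 1 for parabiosis against old and for NMN against parabiosis; the highest of the first 3 counts came without young replicate 3. Correlated pairs of markers numbered 0 to 4 when single libraries were left out, 0 without the libraries low in Xist, 0 without young replicate 3 and NMN replicate 1 together, and 8 in deviations from the group means, where the permutation p does not allow for the fitted means.

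Signs of several small differences turned. Without the libraries low in Xist, the log2 differences for old against young were -0.10 for Cd68, 0.83 for Msr1, 0.64 for Cd14, -0.13 for Cd163, -0.83 for Fcgr3 and -1.03 for Ms4a7. Those for NMN against old were -0.42 for Cd14, 0.48 for Cd163 and 0.78 for Fcgr3, and those for parabiosis against old -0.074 for Lyz2, -0.46 for Mrc1, -0.54 for Cd14 and 0.018 for Cd163. With the neuronal score as covariate, old against young gave 1.31 for Lyz2, 0.41 for Msr1, 0.046 for Cd14 and -0.11 for Cd163. In that fit NMN against old gave 0.92 for Lyz2, 0.044 for Fcgr3 and 0.50 for Ms4a7, and parabiosis against old gave 0.21 for Msr1. Neuronal scores were 0.60 to 1.58 with NMN and -0.46 to 0.25 in untreated old tumours. These did not overlap, so the NMN values with the covariate are extrapolations. The lowest parabiosis score, 0.241, was just below the highest untreated old score, 0.248. With quantile normalization, old against young gave -0.19 for Mrc1, -0.003 for Cd163 and -0.044 for Ms4a7, and parabiosis against old gave -0.074 for Mrc1 and -0.004 for Cd14. On recovered reads, old against young gave 0.01 in edgeR and 0.014 in DESeq2 for Msr1, 0.068 and 0.076 for Cd14, and -0.30 and -0.28 for Ms4a7, and parabiosis against old gave -0.094 and -0.082 for Mrc1 and -0.02 and -0.005 for Cd14.

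Leaving out single libraries, differences for old against young ran from -0.73 to 0.34 for Lyz2, -0.31 to 0.22 for Cd14, -0.45 to 0.12 for Msr1, -0.77 to 0.56 for Ms4a7, -0.067 to 0.49 for Cd163 and -0.19 to 0.32 for Mrc1. For NMN against old they ran from -0.34 to 0.23 for Cd163, -0.55 to 0.19 for Fcgr3, -0.31 to 0.48 for Cd14 and -0.82 to 0.29 for Lyz2. For parabiosis against old they ran from -0.17 to 0.36 for Cd14, -0.27 to 0.23 for Mrc1, -0.007 to 0.33 for Cd68, -0.31 to 0.26 for Msr1 and -0.29 to 0.40 for Fcgr3. For NMN against old, Cd68, Mrc1 and Msr1 kept their sign in the fits named here but not their size. Leaving out single libraries gave -0.64 to -0.30 for Cd68, 0.22 to 0.72 for Mrc1 and -1.60 to -0.23 for Msr1. Without the libraries low in Xist they were -0.20, 0.03 and -1.68, and with the neuronal covariate -0.19, 0.55 and -0.47. The values with the covariate are again extrapolations between groups whose neuronal scores did not overlap. Arg1, with 6 to 35 reads, and the other low markers are limited by counting error, and 3 libraries per group by the spread between tumours.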
